A study of Mus musculus with 24 samples.

Results

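The genes described here encode potassium channels and their auxiliary subunits, taken as every probe whose annotated mouse gene symbol starts with Kcn. There were 119 such probes for 80 genes among the 25697 probes (16593 named genes) of an Illumina Mouse Ref8 array. The array was hybridized with hippocampal total RNA from 24 C57BL6 mice, 1 array per mouse and 4 mice in each of 6 groups: young, adult and old females (FY, FA and FO) and young, adult and old males (MY, MA and MO). Young mice were 3 months old, adult mice 12 months and old mice 24 months, none carried a transgene or received a drug, and all females were killed in diestrus, the old ones after cycling had ceased. Only the females had daily vaginal lavage, over several weeks, so sex and this handling cannot be told apart. Values are normalized probe intensities on a linear scale, set to 16 where lower, and a probe was kept when it exceeded 16 in all 4 arrays of at least 1 group. By this rule 50 potassium channel probes for 40 genes were kept (42.0% of 119 probes, against 46.3% of all probes), and 42 of the 50 were above 16 in all 24 arrays. The other 69 probes include 57 that were above 16 in no array, and for those the array gives only an upper bound.

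Potassium channels set the resting potential of neurons and glia and end the action potential. Voltage-gated (Kv) channels open on depolarization and work with cytoplasmic beta subunits and with the calcium-binding KChIP proteins, calcium-activated (KCa) channels shape the afterhyperpolarization, inward rectifiers (Kir) hold the resting potential and carry the response to inhibitory G-protein coupled receptors, and the tandem-pore-domain (K2P) channels carry background leak. In the hippocampus the A-type Kv4 current of pyramidal dendrites, the Kv7 M-current and the SK afterhyperpolarization are all known to limit excitability. By class, 18 of 42 Kv pore probes were kept (15 of 32 genes), with 12 of 22 Kv auxiliary probes (8 of 13 genes), 8 of 14 KCa probes (6 of 10 genes, the Slo relatives Kcnt1 and Kcnu1 included), 4 of 19 Kir probes (4 of 12 genes) and 8 of 22 K2P probes (7 of 13 genes).

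Each probe of the array is a 50-base oligonucleotide, and its brightness also depends on its sequence, so differences are read within a probe and brightness does not rank the transcripts of different genes. The probes below are the 4 potassium channel probes whose sequence is given in the study's supplementary lists of transcripts that differ with age or sex. Of these, 3 (Kcnk6, Kcnk4 and Kcnip3) carry the lowest p-values between old and young mice described here. The lists were drawn from these same arrays, so the low p-values follow from the selection and are not an independent result. The first 30 bases are shown, 5′ to 3′, with no part marked. By the RefSeq annotation Kcnk6 lies on chromosome 7, Kcnk4 on chromosome 19, Kcnip3 on chromosome 2 and Kcnip1 on chromosome 11.
Kcnk6: agtgcctgacccgtccctcgatctgaactc
Kcnk4: gctgatgctcaggcatgcttggcttatttg
Kcnip3: gaaaagccaaggccacgggaaaaggccacc
Kcnip1: tgagatctctacagctgttccaaaatgtca

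Old male arrays 1 and 3 stood apart from the other 22 arrays. Their root mean square deviation from the group mean over the 50 potassium channel probes was 0.46 and 0.55 on the log2 scale, against at most 0.34 in the other arrays. Old male 3 had the lowest dentate granule (-1.73, 2 of 7 markers kept), CA1 (-1.09, 6 of 7) and CA3 (-0.71, 4 of 5) marker scores of the 24 arrays, in log2 units from the mean of all arrays, and the highest cortical pyramidal score (0.52, 6 of 10). Choroid plexus markers, 5 of 12 kept, summed to between 769 and 19853 across the 24 arrays and varied within every group. All arrays were kept. Leaving out both old males turned the sign of the log2 difference, or moved it by over 1.5 times, for 32 of the 50 probes in old against young mice, for 34 in MO against MY and for 33 between the sexes, and where this applied to a difference of at least 0.1 that is described below, the value without them is given beside it.

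Kcnk6, a K2P channel gene, was the only potassium channel gene called with age, and none was called with sex. In old against young mice, averaged over both sexes, 1 of the 50 probes was called by limma at a Benjamini-Hochberg adjusted p under 0.05, and it was higher in old mice (all kept probes: 1.27% called, 0.966% called and higher). In FO against FY that same probe was called and no other (background 0.714% called, 0.664% called and higher). No potassium channel probe was called in FA against FY (background 0%), FO against FA (0.361%), MA against MY (0%), MO against MA (0%) or MO against MY (0.101%). None was called between the sexes, in FY against MY (0.0336%), FA against MA (0.0504%), FO against MO (0.176%) or over the 3 ages together (0.336%), and none in the comparison of the young-to-old change between the sexes (0%) or in the test for any difference among the 6 groups (0.723%). The counts were the same without old males 1 and 3. Before adjustment, 5 of 50 had p under 0.05 in the averaged old against young comparison (10%, against 11.5% of all kept probes) and 3 of 50 between the sexes (6%, against 10.3%). The median log2 fold change of the 50 probes, old against young, was 0.00413, next to -0.02 for all kept probes, and 26 of the 50 were above 0.

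The 95% interval of the old against young difference lay within 1.5-fold in either direction for 40 of the 50 probes and within 2-fold for all 50. Between females and males it lay within 1.5-fold for 47 and within 2-fold for all 50. In single pairs of groups the intervals were wider, with a median half-width of log2 0.36 against 0.26 for old against young. That half-width was the same for every pair, since the fit pools the spread of the 6 groups. It does not carry the wider spread of old males described below. For FO against FY, 32 of 50 intervals lay within 1.5-fold and 49 within 2-fold. MO against MY had the fewest of the pairs within 1.5-fold, 23 of 50, and 47 within 2-fold.

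**Figure D1:**
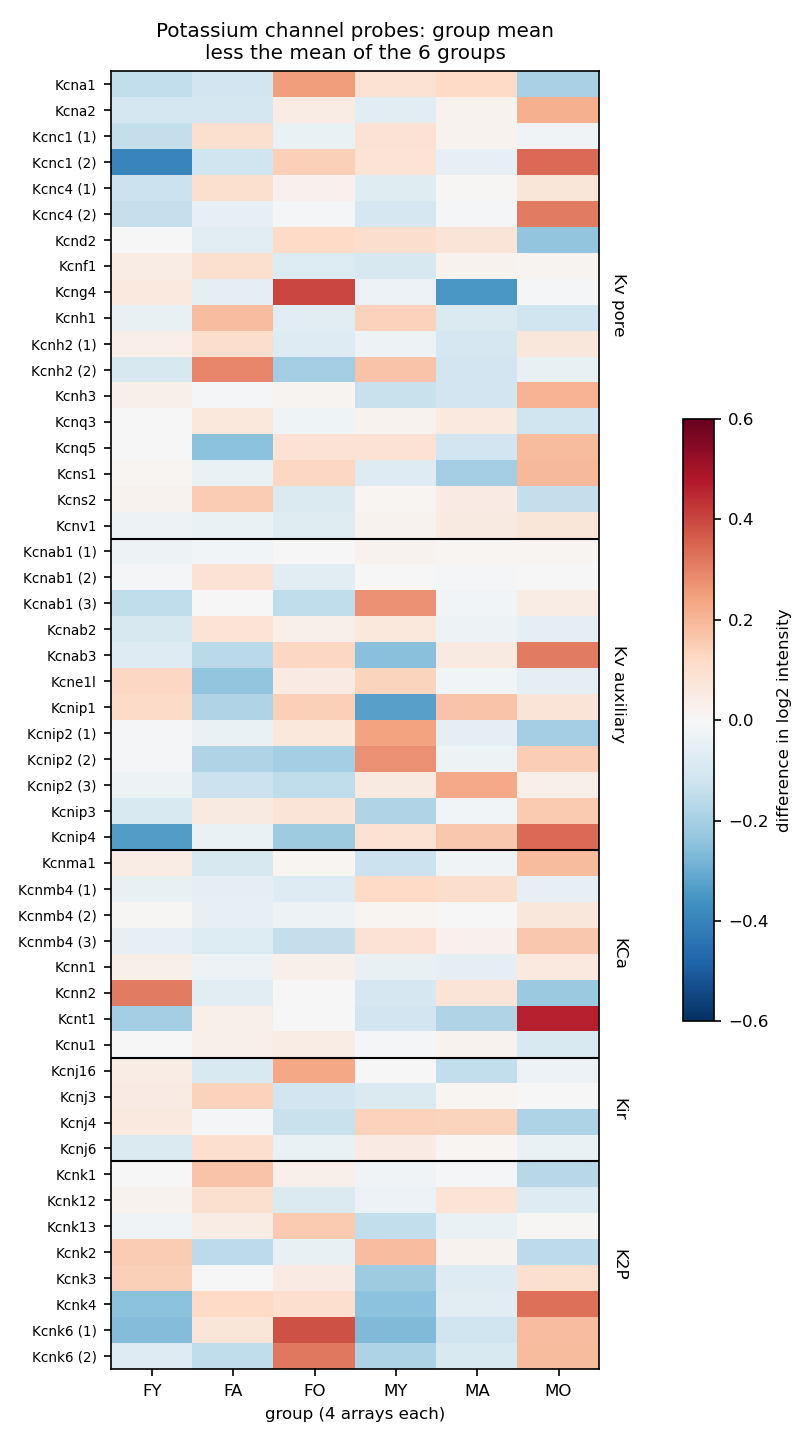
Group mean log2 intensity of the 50 kept potassium channel probes, each less its own mean over the 6 groups (4 arrays each), ordered by class; the probe number is in parentheses where a gene has several, and the colour scale ends at 0.6 in either direction. Kcnk6 is pale blue to blue in FY, MY and MA and red in FO and MO, 26 of the 50 rows are higher in old than in young mice over both sexes, and the strong MO colours of Kcnt1 and Kcnab3 come from a single array.

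The called gene was Kcnk6, which encodes TWIK-2, a K2P channel that in mouse macrophages carries potassium efflux. With its brighter probe the intensities in the 4 young females were 35.3, 43.7, 46.2 and 47.8, in the adult females 55.05, 47.2, 57.3 and 57.6 and in the old females 59.2, 61.5, 71.5 and 77.8. Every old female lay above every young and every adult female, while 3 of the 4 adult females lay above every young female. In the males the intensities were 47.4, 42.1, 34.4 and 48.6 in MY, 43.1, 51.1, 41.5 and 55.1 in MA and 57.4, 57.8, 66.98 and 52.3 in MO. Every old male lay above every young male, and the adult males overlapped both.

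The group means (± SD, n = 4) were 43.2 ± 5.57 in FY, 54.3 ± 4.86 in FA, 67.5 ± 8.68 in FO, 43.1 ± 6.48 in MY, 47.7 ± 6.5 in MA and 58.6 ± 6.12 in MO. Old against young, over both sexes, Kcnk6 rose 1.46-fold (log2 0.55, SE 0.10, limma adjusted p = 0.0024). In females alone it rose 1.56-fold from young to old (log2 0.64, SE 0.14, limma adjusted p = 0.0194). This call in females was lost without FY 1 (adjusted p = 0.111), FY 2 (0.0574), FO 3 (0.0754) or FO 4 (0.128), whereas the averaged call held whichever array was left out (limma adjusted p from 0.0023 to 0.0089). The call in females was also lost with no filter on dim probes (adjusted p = 0.0515), with only FO and FY in the fit (0.100) and with the choroid plexus score as a covariate (0.0569). In males MO against MY was 1.37-fold (log2 0.45, SE 0.14, limma adjusted p = 0.20) and did not pass. The test of the study's methods was re-run here on the kept probes. It compares the 6 group means pairwise without adjustment for the number of probes and with a 1.2-fold limit. By it Kcnk6 was called both in FO against FY (background 1.72%) and in MO against MY (2.13%). That re-run called no other potassium channel probe there, and none in FA against FY (1.02%), FO against FA (1.25%), MA against MY (0.311%), MO against MA (0.781%), FY against MY (0.714%), FA against MA (0.664%) or FO against MO (2.48%). The study's own supplementary lists of transcripts that differ with age or sex hold Kcnk4, Kcnip3 and Kcnip1 besides Kcnk6. The re-run therefore does not reproduce those lists in full. The female change of Kcnk6 exceeded the male by log2 0.19 (SE 0.19, limma adjusted p = 0.882), so no difference between the sexes was detected.

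Without old males 1 and 3 the averaged difference was log2 0.50 (limma adjusted p = 0.0177) and that of MO against MY 0.36 (limma adjusted p = 0.775). For the steps between, FA against FY was log2 0.33 (adjusted p = 0.386), FO against FA 0.31 (0.886), MA against MY 0.15 (0.999) and MO against MA 0.30 (0.897), all positive and none passing limma's threshold. The test over all 6 groups gave an adjusted p of 0.0511. A further Kcnk6 probe was dim, with 8.99 to 34.1 across the arrays and only 17 of 24 arrays above 16. Its log2 difference between old and young mice was 0.38 (SE 0.14, limma adjusted p = 0.253), with the same sign as the bright probe, and Pearson's r of their floored log2 values over the 24 arrays was 0.63.

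**Figure D2:**
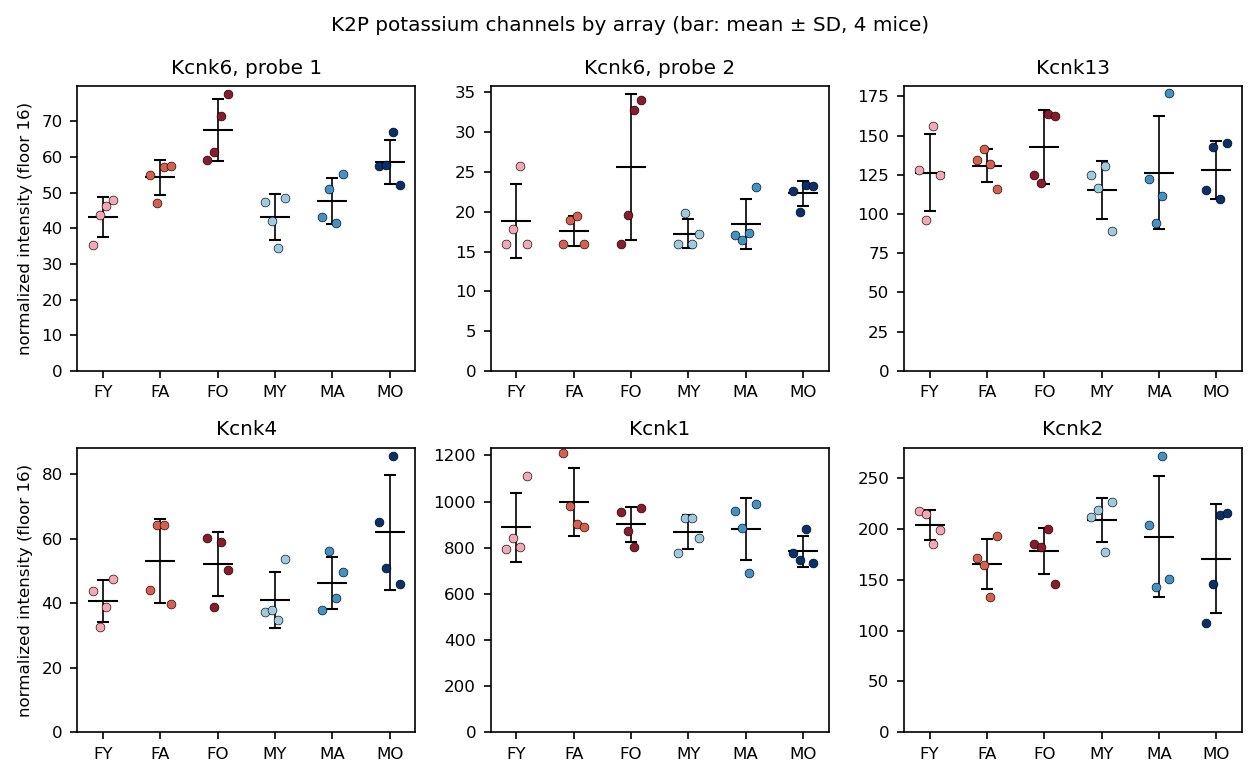
Normalized intensity (linear axis from 0, values under 16 set to 16) of 6 K2P probes in each of the 24 arrays by group, with the mean and SD of 4 mice. For Kcnk6 probe 1 the old females (59.2 to 77.8) and old males (52.3 to 67.0) lie above the young mice of their sex (35.3 to 47.8 and 34.4 to 48.6), and for Kcnk13, Kcnk1 and Kcnk2 the groups overlap.

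Microglial markers rose in the same comparisons as Kcnk6. Of 13 microglial marker genes 9 were kept (Csf1r, Itgam and Cd68 were among those not kept), and 7 of them rose in FO against FY (median of the 9, log2 0.93) and in the averaged old against young comparison (median 0.72), namely the complement genes C1qa, C1qb and C1qc, the receptor Trem2 and its adaptor Tyrobp, Aif1 and Tmem119. Cx3cr1 and P2ry12 were not called. The summed intensity of the 9 genes ranged from 1578 to 1719.6 in FY, 1846 to 1932 in FA, 2422 to 3633 in FO, 1461 to 1712 in MY, 1594 to 2056 in MA and 1888 to 2341 in MO, and the 4 FO arrays, which held the 4 highest sums, also held 4 of the 5 highest Kcnk6 intensities. Within MO the ends were reversed. Old male 3 had the lowest sum (1888) and the highest Kcnk6 intensity (66.98), and old male 4 the highest sum (2341) and the lowest intensity (52.3). In males 0 of the 9 genes were called in MO against MY (median 0.34). With the microglial score of each array as a covariate, an alternative chosen after the data were seen, the old against young difference of Kcnk6 was log2 0.27 (SE 0.21, limma adjusted p = 0.727), and that of FO against FY was log2 0.27 (SE 0.28, limma adjusted p = 0.889). In each sex the score of every old array lay above that of every young one. It ran from 0.297 to 0.777 in FO and -0.292 to -0.103 in FY, and from -0.0593 to 0.325 in MO and -0.413 to -0.153 in MY. This fit therefore cannot separate the score from age, and losing the call in it decides nothing about Kcnk6. Oligodendrocyte markers, 8 of 10 kept, had a median of 0.28 between old and young, with 0 called. Of the ventricular and surface tissues, 0 of 5 kept choroid plexus genes (median -1.70, 0 called), 0 of 7 of the leptomeninges (median -0.89, Bgn fell) and 0 of 4 of the ependyma (median -0.66, Mia fell) had a log2 difference above 0 in that comparison. Of 6 kept mural genes 2 were above 0 (median -0.22), and the smooth muscle genes Acta2 and Myh11 fell. Gpr17 fell among 6 kept oligodendrocyte precursor genes (median 0.03) and Tek among 6 of the endothelium (median -0.00284). Beyond the fits with a microglial or choroid plexus covariate, the part of these markers in the channel values was not tested. In tissue RNA, more cells of a type and more transcript per cell cannot be told apart.

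**Figure D3:**
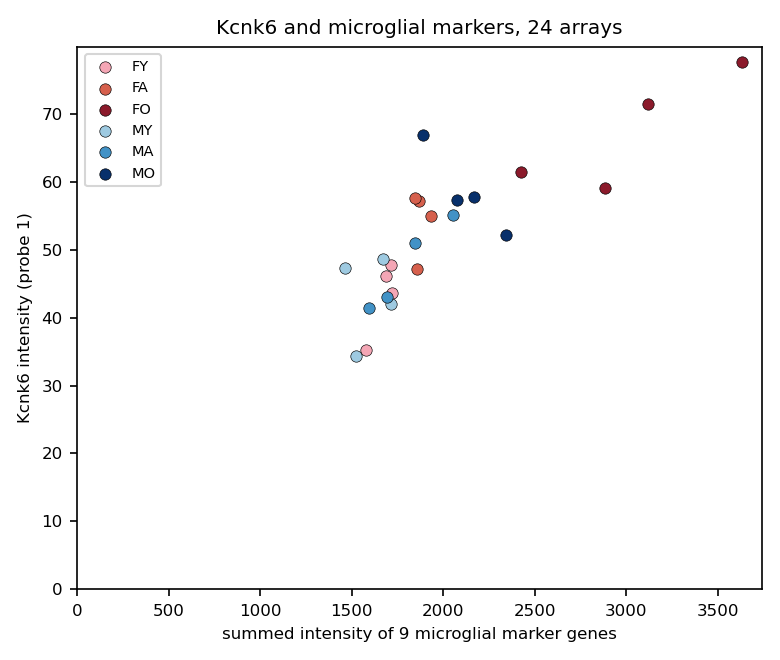
Intensity of Kcnk6 probe 1 (vertical axis) against the summed intensity of 9 kept microglial marker genes (horizontal axis) in the 24 arrays, coloured by group, both on linear axes from 0. The FO arrays, with sums of 2422 to 3633, lie at the upper right, and the FY and MY arrays, with sums of at most 1719.6, at the lower left.

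For other potassium channels known from microglia no difference was called. Kcnk13 (THIK-1), the main background potassium channel of mouse microglia, measured 128, 96.3, 156 and 125 in FY and 125, 119.5, 164 and 162 in FO, and 125, 117, 131 and 89.1 in MY and 115, 143, 109.7 and 145 in MO. The ranges overlapped in both sexes, and old over young was 1.12 (95% interval 0.941 to 1.34, adjusted p = 0.665) by limma, with a log2 difference of 0.17 that was 0.26 without old males 1 and 3. The probes of Kcna3 (Kv1.3) and Kcnn4 (KCa3.1), both described in activated microglia, exceeded 16 in no array.

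Among the remaining K2P channels, Kcnk4 (TRAAK, a mechanically gated neuronal leak channel) had the next lowest p between old and young mice. Its intensities were 43.7, 32.6, 38.98 and 47.5 in FY, 60.2, 38.8, 59.1 and 50.3 in FO, 37.3, 37.98, 34.7 and 53.7 in MY and 65.1, 51.02, 85.6 and 45.96 in MO. The groups overlapped in both sexes, and the highest value was that of old male 3. Old over young was 1.38 (95% interval 1.12 to 1.7, adjusted p = 0.154) in the limma fit and did not pass, and without old males 1 and 3 the log2 difference changed from 0.46 to 0.31. Kcnk1 (TWIK-1) had the brightest K2P probe, at 690.2 to 1209 across the arrays, and its old over young ratio was 0.96 (95% interval 0.85 to 1.09, adjusted p = 0.858) in the limma fit. Kcnk2 (TREK-1, a leak channel opened by stretch and lipids) gave 217, 214, 185 and 199 in FY against 185, 182, 200.1 and 146 in FO, and 212, 218, 177 and 227 in MY against 107, 145, 214 and 215 in MO. Its ratio was 0.828 (95% interval 0.678 to 1.01, adjusted p = 0.474) in the limma fit, below 1 without passing. Kcnk3 (TASK-1, an acid-sensitive leak channel) at 26.3 to 90.3 and Kcnk12 (THIK-2) at 10.2 to 28.2 were not called in any comparison.

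Among Kv pore genes no probe was called with age. In the averaged old against young comparison the lowest p belonged to the dim probe of Kcnc1 (Kv3.1, which allows fast firing of interneurons), at 13.6, 18.2, 18.6 and 19.6 in FY, 17.1, 20.1, 27.5 and 24.3 in FA and 22.1, 24.3, 28.9 and 30.6 in FO. All 4 old females lay above all 4 young ones. In MY it was 32.6, 23.97, 18.1 and 28.2 and in MO 27, 24.3, 50.7 and 24.7, which overlapped. The FO over FY ratio was 1.45 (95% interval 1.06 to 2.0, adjusted p = 0.629) and the ratio over both sexes 1.32 (95% interval 1.05 to 1.65, adjusted p = 0.293) in the limma fit, a log2 difference of 0.40 that was 0.25 without old males 1 and 3. The bright Kcnc1 probe, at 353 to 608, gave an old over young ratio of 0.996 (95% interval 0.86 to 1.15, adjusted p = 0.992) in the limma fit, and Pearson's r between the Kcnc1 probes over the 24 arrays was 0.07.

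Kcnd2 (Kv4.2, the pore of the dendritic A-type current) was the only Kv4 pore gene kept, with Kcnd1 and Kcnd3 below the limit. Its intensities were 277, 219, 251 and 303 in FY and 323, 304, 252 and 263 in FO, and 224, 282, 283 and 351 in MY and 265, 221, 199.7 and 207 in MO. FO over FY was 1.09 (95% interval 0.912 to 1.3, adjusted p = 0.973) and MO over MY was 0.788 (95% interval 0.659 to 0.942, adjusted p = 0.291) in the limma fit, and young and old overlapped in both sexes. Kcna1 (Kv1.1, a low-threshold axonal channel) measured 71.5, 56.1, 74.3 and 91.5 in FY, 138, 85.7, 74.8 and 92.6 in FO, 71.2, 77.6, 94.5 and 101 in MY and 59.1, 56.1, 84.4 and 85.1 in MO, with FO over FY at 1.32 (95% interval 1.02 to 1.7, adjusted p = 0.71) and MO over MY at 0.82 (95% interval 0.634 to 1.06, adjusted p = 0.564). Groups overlapped for Kcna1 in both sexes. These probes had the lowest p-values of the 50 for the difference between the female and male change, at log2 0.68 for Kcna1 (unadjusted p = 0.013) and 0.47 for Kcnd2 (unadjusted p = 0.0141), and both had a limma adjusted p of 0.841. Without old males 1 and 3 the values were 0.70 and 0.52.

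Kcnc4 (Kv3.4, a fast-inactivating Kv3 channel) had the brightest Kv pore probe, at 1084 to 1917, and its old over young ratio was 1.11 (95% interval 0.972 to 1.27, adjusted p = 0.581) in the limma fit. Its dimmer probe gave 1.21 (95% interval 0.949 to 1.54, adjusted p = 0.585), and r between the probes was 0.32. Without old males 1 and 3 the log2 differences of the Kcnc4 probes were 0.08 and 0.02, in place of 0.15 and 0.27. Kcna2 (Kv1.2), at 168 to 389, gave 1.16 (95% interval 0.985 to 1.37, adjusted p = 0.499), and its log2 difference changed from 0.22 to 0.05 without them. Of the M-current genes Kcnq3 and Kcnq5 were kept at low intensity, 19.04 to 29.8 and 10.1 to 41.3, with old over young ratios of 0.943 (95% interval 0.822 to 1.08, adjusted p = 0.809) and 1.07 (95% interval 0.814 to 1.4, adjusted p = 0.903) respectively by limma. The ether-à-go-go family (Kcnh1, Kcnh2 and Kcnh3) and the electrically silent modifier subunits (Kcnf1, Kcng4, Kcns1, Kcns2 and Kcnv1) had no called probe. Over the 18 Kv pore probes the old against young log2 fold change ran from -0.16 to 0.40, with a median of 0.03.

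Among Kv auxiliary subunits, Kcnip3 (KChIP3, also known as the transcriptional repressor DREAM) had the lowest p with age. It measured 461, 495, 462 and 400.5 in FY and 463, 470.4, 612 and 502 in FO, and 479.5, 439.7, 381 and 412 in MY and 502, 487, 689 and 499.9 in MO. Old and young males did not overlap, whereas females did. Old over young was 1.19 (95% interval 1.05 to 1.35, adjusted p = 0.198) by limma and did not pass, and without old males 1 and 3 the log2 difference was 0.19 in place of 0.25. Kcnip1 (KChIP1), at 59.2, 56.3, 71.02 and 47.1 in FY, 41.8, 46.4, 94.5 and 65.7 in FO, 43.4, 42.6, 44.6 and 40.05 in MY, 55.4, 55.4, 64.1 and 66.8 in MA and 57.6, 38.9, 68.4 and 65.7 in MO, was lower in all young than in all adult males. MA over MY was 1.41 (95% interval 1.06 to 1.88, adjusted p = 0.999) in the limma fit, with an unadjusted p of 0.0202. The 3 probes of Kcnip2 (KChIP2), a subunit that speeds recovery of Kv4 channels, gave old over young log2 differences of -0.19, -0.16 and -0.07, with none called. Without old males 1 and 3 these were -0.16, -0.25 and -0.21. Kcnab2 (Kv beta 2) was the brightest auxiliary probe at 2622 to 4417, with an old over young ratio of 1.0 (95% interval 0.889 to 1.13, adjusted p = 0.991) by limma. Kcnab1 (Kv beta 1) had its brightest probe at 1048 to 1310.1 and a ratio of 1.01 (95% interval 0.938 to 1.08, adjusted p = 0.965). The 12 auxiliary probes had a median log2 difference of -0.01.

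Kcne2, an auxiliary subunit abundant in the choroid plexus epithelium, did not meet the filter, since no group had all 4 arrays above 16. It was above 16 in 11 of 24 arrays and reached 441.9 in the brightest. In the 9 arrays whose choroid plexus markers summed to 13711 or more it measured 56.2 to 441.9, and in the 15 arrays whose sums were at most 9902 it measured at most 27.4. These 9 arrays came from FY (3), FA (2), MY (2), MA (1) and MO (1). Kcne2 and these markers were high in the same arrays within the groups, and no age comparison was made for it.

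In the KCa class the BK channel pore Kcnma1 and its neuronal beta 4 subunit Kcnmb4 were the brightest members. Kcnma1 measured 601, 638, 668 and 541 in FY and 538, 589, 757 and 528 in FO, and 575, 612, 484 and 501 in MY and 622, 577, 854 and 672 in MO. Females overlapped, and in males 3 of the 4 old mice lay above every young one. Its MO over MY ratio was 1.25 (95% interval 1.03 to 1.5, adjusted p = 0.354) and FO over FY was 0.978 (95% interval 0.81 to 1.18, adjusted p = 0.999) by limma. The log2 difference of MO against MY, 0.32 with all arrays, was 0.20 without old male 3 and 0.20 without old males 1 and 3. The 3 Kcnmb4 probes gave old over young ratios of 0.933, 1.01 and 0.993, none called. The SK channels Kcnn1 and Kcnn2, which carry the medium afterhyperpolarization, measured 51.9 to 76.2 and 26.3 to 81.8, and Kcnn3 exceeded 16 in no array. For Kcnn2, FY gave 69.5, 79.3, 52.4 and 41.3 and FO gave 34.6, 58.4, 55.3 and 44.2, which overlapped, and FO over FY was 0.802 (95% interval 0.544 to 1.18, adjusted p = 0.955) in the limma fit. Kcnt1 (Slack, a sodium-activated channel) and Kcnu1 (Slo3) were not called, with old over young ratios of 1.31 and 0.986. The Kcnt1 value rested on old male 3, and its log2 difference of 0.39 was 0.12 without that array and 0.16 without old males 1 and 3. The median log2 difference of the 8 KCa probes between old and young mice was 3.1e-05.

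Few Kir genes were bright enough to measure. The G-protein-gated pair Kcnj3 (GIRK1) and Kcnj6 (GIRK2), which carries the postsynaptic response to GABA-B and adenosine receptors, measured 27.7 to 53.8 and 42.7 to 82.2, whereas the probe of Kcnj5 exceeded 16 in no array and that of Kcnj9 in 1 array. Old over young was 0.972 (95% interval 0.827 to 1.14, adjusted p = 0.935) for Kcnj3 and 0.985 (95% interval 0.818 to 1.19, adjusted p = 0.974) for Kcnj6 by limma. Kcnj4 (Kir2.3, a classical strong inward rectifier) was the brightest Kir probe, at 188, 324, 205 and 237 in FY and 228, 219, 184 and 189.9 in FO, and 242, 251, 215 and 285 in MY and 134, 161, 296 and 234 in MO. Groups overlapped in both sexes, and its ratio was 0.836 (95% interval 0.693 to 1.01, adjusted p = 0.465) in the limma fit. Kcnj16 (Kir5.1), a partner of the glial channel Kir4.1, measured 18.8 to 71.1, with a ratio of 1.06 (95% interval 0.767 to 1.45, adjusted p = 0.939). The KATP pore gene Kcnj8 passed 16 in 6 arrays and was not kept. Kcnj10, Kcnj11 and Kcnj13 were not analysed here.

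**Figure D4:**
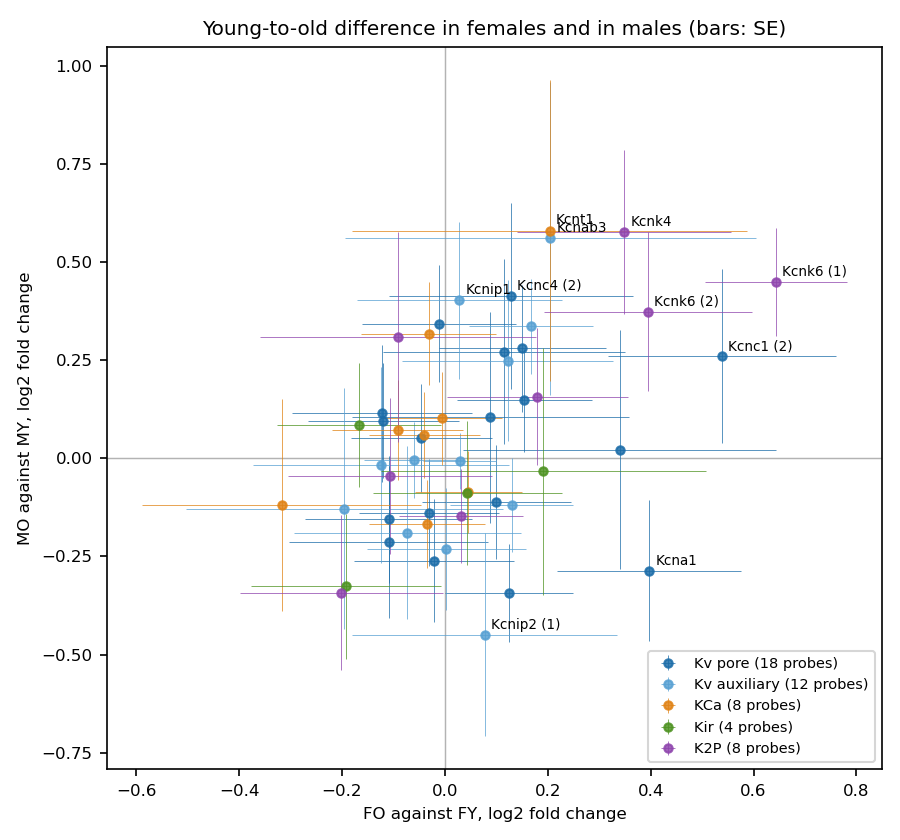
Log2 fold change of FO against FY (horizontal axis) and of MO against MY (vertical axis) for the 50 kept potassium channel probes, coloured by class, with bars of 1 standard error from limma. Kcnk6 probe 1, at 0.64 and 0.45, lies farthest to the right, and Kcna1 is positive in females and negative in males, at 0.40 and -0.29, without a called difference between them.

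Between females and males at all ages together, the lowest p was that of Kcnip4 (KChIP4, an A-type subunit with a form that slows inactivation). Its intensities were 18.5, 24.03, 22.98 and 33.3 in FY, 33.9, 28.97, 32.5 and 24.3 in FA and 33.6, 25.8, 24.9 and 22.1 in FO, against 24.9, 26.7, 33.4 and 50.04 in MY, 33.8, 38.6, 26 and 40.1 in MA and 38.8, 36.9, 35.5 and 43.5 in MO. Old males lay above all old females, while the young and the adult groups overlapped. Females over males was 0.761 (95% interval 0.642 to 0.902, adjusted p = 0.177) by limma, which did not pass. The next were probe 3 of Kcnmb4 at 0.881 (95% interval 0.792 to 0.979, adjusted p = 0.363), the dim probe 3 of Kcnab1 at 0.87 (95% interval 0.765 to 0.989, adjusted p = 0.445), the dim Kcnc1 probe at 0.842 (95% interval 0.701 to 1.01, adjusted p = 0.524) and Kcnk1 at 1.1 (95% interval 0.992 to 1.21, adjusted p = 0.533). The other Kcnmb4 probes gave 0.922 and 0.965, and without old males 1 and 3 the log2 difference of Kcnmb4 probe 3 was -0.11 in place of -0.18 and that of the dim Kcnc1 probe -0.15 in place of -0.25. For the brighter Kcnab1 probes 1 and 2 the log2 difference between females and males was -0.03 and 0.01. For the bright Kcnc1 probe it was -0.06. The median log2 difference of the 50 probes between females and males was 0.00268, beside 0.01 over all kept probes.

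No listed partner of these channels was called, which for so few genes is near the share over all kept probes. That share was 0.714% in FO against FY and 0.101% in MO against MY. It was 1.27% between old and young over both sexes and 0.336% between the sexes over the 3 ages. Of 31 partner genes (such as the Kv4 subunits Dpp6 and Dpp10, the axonal anchor Cntnap2, the postsynaptic scaffold Dlg4, the KATP subunit Abcc8 and the GABA-B receptor subunit Gabbr1), 19 were kept and 0 were called in FO against FY, in MO against MY, between old and young over both sexes, or between the sexes. Their median log2 difference between old and young was -0.02, with the lowest p for Dpp10 (log2 0.40, SE 0.20, limma adjusted p = 0.457). Of 11 genes of potassium transport by the sodium pump and the cation-chloride cotransporters, 5 were kept and 0 called in the same comparisons, with a median of 0.03 between old and young. For 5 genes this too is near those shares.

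The widest spread of the potassium channel probes was among old males. The median SD within a group, on the log2 scale over the 50 probes, was 0.24 in FY, 0.19 in FA, 0.22 in FO, 0.17 in MY, 0.22 in MA and 0.33 in MO (all kept probes: 0.18, 0.13, 0.15, 0.13, 0.17 and 0.23). Each of old males 1 and 3 was set against the range of the other 22 arrays, and a low value was counted only where all 22 exceeded 16. Old male 3 lay outside that range for 22 of the 50 probes, 16 above and 6 below, which is 44% against 28.0% of all kept probes. Its values for probes 2 and 3 of Kcnip2 (3.51 and 4.12) were also below the other arrays (lowest 14.9 and 9.87) but were not counted. Old male 1 did so for 18 probes, 11 above and 7 below, or 36% against 29.0%.

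The most distant value was that of Kcnab3, which encodes Kv beta 3. In MO it measured 47.04, 57.7, 324 and 87.6, and the 22 other arrays ran from 40.8 to 127.7. Kcnt1 measured 28.8, 38.5, 144 and 29.1 in MO, beside 19.3 to 48.1, and Kcnk3 measured 38.5, 33.5, 90.3 and 32.5, beside 26.3 to 57.7. In all 3 the high value was that of old male 3 alone. In the opposite direction, the brightest Kcnip2 probe measured 183, 88.2, 42.2 and 98.5 in MO, beside 84.0 to 151.6, and Kcng4, an electrically silent subunit, 70.9, 29.1, 15.8 and 37.5, beside 19.3 to 54.7, so that old male 1 was the highest and old male 3 the lowest for both. Kcnh3 (Kv12.2, a forebrain channel) at 451, 237, 398 and 248 and probe 2 of Kcnc4 at 225, 111, 171 and 86.9 were above the other 22 arrays in both. Old male 3 is the array with the low dentate, CA1 and CA3 scores, and old male 1 had a choroid plexus marker sum of 17196, against 769 to 1040 in the other 3 old males. The part of either in the channel values was not tested.

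**Figure D5:**
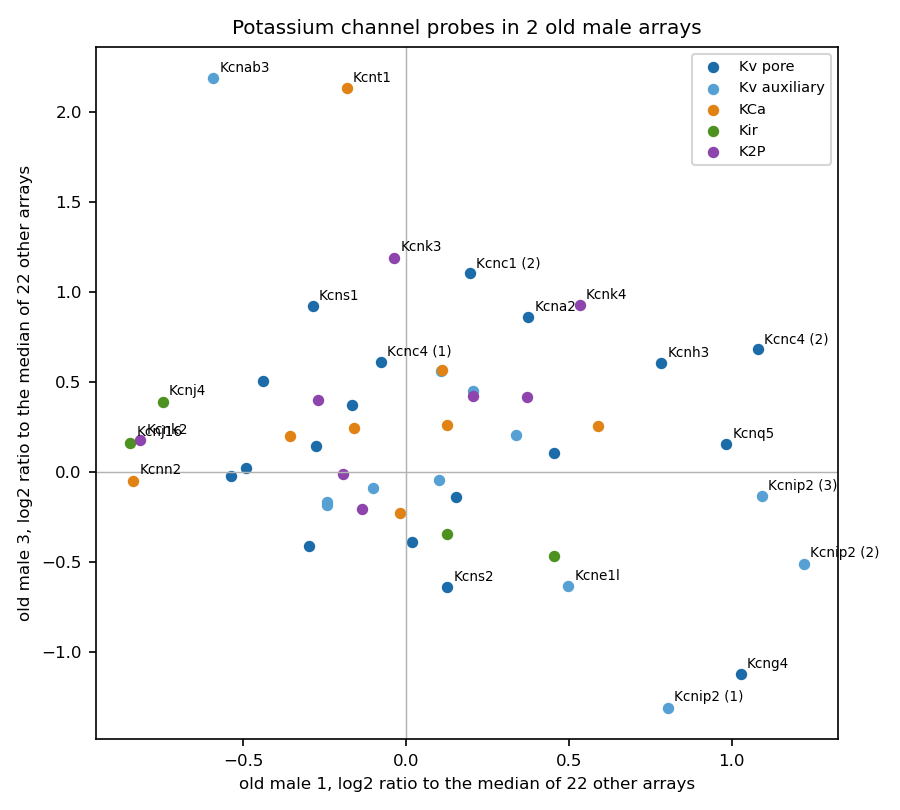
Log2 ratio of old male 1 (horizontal axis) and old male 3 (vertical axis) to the median of the other 22 arrays, for each of the 50 kept potassium channel probes, coloured by class. Kcnab3 and Kcnt1 stand at 2.19 and 2.14 in old male 3 and at -0.59 and -0.18 in old male 1, and Kcnip2 probe 1 and Kcng4 lie low in old male 3 and high in old male 1.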

How the data were processed

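Hippocampal RNA from 24 mice was labelled and hybridized, 1 array per mouse. The deposited values are linear intensities. Before depositing them the authors applied the average normalization of GenomeStudio 2011.1 and subtracted background, so 22.4% lie below 0 and depth does not apply: the 4 arrays per group limit the precision. A second table with 48 sample columns of unnormalized signal was not used, since its column names match no label. Probe genes came from the platform annotation (23978 probes with 1 symbol, 1719 with none).

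Intensities were floored at 16 and log2 transformed. The filter retained 11901 probes, each exceeding that floor in every array of 1 or more groups. A linear model over the 6 groups was fitted in R 4.3.3 with limma 3.58.1 (empirical Bayes with trend, 2-sided, Benjamini-Hochberg over the kept probes at 0.05), and every adjusted p comes from such a fit. The scripts were tested on simulated data. The methods' test was re-run as a 2-factor analysis of variance with Student-Newman-Keuls testing over the 6 group means and a 1.2-fold limit. The study does not state over which set of means that testing was done. It also filtered probes by detection call and scaled values to the median of young males. The re-run instead used the floored values and the filter given here, so the study's own calls can differ. Genes were named if called, if among the brightest or lowest-p members of their class or comparison, or as members of the A-type, M-current, GIRK, KATP, glial Kir or choroid plexus groups. Other named genes, such as Kcnk13, Kcna2, Kcnn2 and Kcnt1, and the genes at the extremes of old males 1 and 3 were added after their values had been seen. The members and lists were chosen with earlier results of these data known. The alternatives covered the floor, offset, normalization, filter, samples, trend, weights, block, covariates and each array left out.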

Additional observations from a re-analysis of the deposited data

Results flagged for a closer look

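Within groups of 4 arrays, 9 of 121 combinations of probe and group, over 21 named probes, held an array far from the other 3 by Dixon's 95% limit, where chance gives about 1 in 20, or 6.05. Old male 3 was high for probe 2 of Kcnc1 (50.7, the others 24.3 to 27.0) and for Kcnip3 (689, the others 487 to 502). Adult female 3 was high for Kcnab2 (4355, the others 3839 to 3894) and for probe 1 of Kcnab1 (1310.1, the others 1135 to 1149). That Kcnab1 probe was also high in adult male 4 (1262, the others 1180.3 to 1191). Probe 3 of Kcnab1, a dim probe, was high in young male 2 (38.7, the others 31.4 to 32.4) and in old male 2 (37.5, the others 24.7 to 26.8). Kcnk1 was high in young female 4 (1109.6, the others 794 to 843). The dim probe 2 of Kcnk6 was high in adult male 4 (23.1, the others 16.4 to 17.3). All 9 lay above their group.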

How the results depend on the processing

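The number of potassium channel probes called in FO against FY was 1, and it was 0 with no filter on dim probes, with a fit of FO and FY alone, with the choroid plexus score as a covariate and with the microglial score as a covariate, an alternative chosen after the data were seen. With each array left out in turn it ranged from 0 to 1, and it was 0 without FY 1, FY 2, FO 3 or FO 4. The count for old against young over both sexes was 1, and 0 with the microglial covariate, while it stayed at 1 with any array left out. The count for any difference among the 6 groups was 0, and 1 with a floor of 32, with an offset of 16, with quantile normalization, without the trend and with array weights, and it ranged from 0 to 1 with an array left out (1 without MA 4 or MO 4). By the methods' test the count for MO against MY was 1 in place of 0. With the microglial covariate the log2 difference of Kcnk6 in FO against FA was -0.00664 and that of the dim Kcnk6 probe between old and young was -0.28, both opposite in sign to the values without it. The microglial score did not overlap between old and young arrays of a sex, so that fit cannot separate it from age. With the replicate number as a block the count was 1 in FO against FY, and it changed no count in any comparison. Same-numbered arrays deviated together with a median correlation of -0.00389 (different numbers 0.00589), and 6 of 24 arrays matched an array of their own number best. No pairing of the mice by number was seen in these values, which cannot exclude one. Why the counts changed between settings was not tested. Probes near the floor of 16, such as the dim probes of Kcnk6, Kcnip2 and Kcnc1, have compressed differences.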
